A study of Mus musculus with 18 samples.

Results

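The enzymes and the carrier that build heme in hepatocytes are described here from 8 genes, Slc25a38, Alas1, Alad, Uros, Urod, Cpox, Ppox and Fech, out of 37991 genes with counts. They were taken by gene symbol from the authors' deposited table of comparisons with PBS and joined by gene identifier to the counts. Urod and Slc25a38 were picked up because their levels in groups with TTR REVERSIR were above PBS, so their values in every comparison that holds PBS or TTR REVERSIR libraries are a description, with no test. The other 6 were not chosen by their values and were tested in all 12 comparisons. All 8 passed the filter on low counts, which left 11153 genes.

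Heme is made in a chain that starts and ends in the mitochondrion. Slc25a38 carries glycine into the mitochondrial matrix, where Alas1 joins it to succinyl-CoA to give 5-aminolevulinate, the step that limits the pathway in liver. In the cytosol Alad, Uros and Urod take part in building and trimming the porphyrin ring, and Cpox, Ppox and Fech oxidise it and insert iron back in the mitochondrion. In liver most of the heme goes to cytochromes P450, and heme in turn lowers Alas1 transcript and protein.

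RNA sequencing of total RNA covered plated hepatocytes, thawed from cryopreserved stock of CD-1 males, in 6 groups of 3 libraries. The groups were TTR REVERSIR, siRNA against Ttr with TTR REVERSIR, scrambled REVERSIR, siRNA with scrambled REVERSIR, siRNA alone, and PBS, the vehicle. A REVERSIR is a short synthetic oligonucleotide that pairs with the guide strand of an siRNA to end its silencing, and the scrambled one has another sequence. The sources used here give no dose, time or number of donor animals, and nothing says that replicates came from separate cultures, so the p-values measure the spread between these libraries, which may be technical. In bulk RNA, fewer cells of a type and less RNA per cell cannot be told apart.

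Library totals ran from 1755819 to 10145265 counts. Ttr stood at 114% of the PBS mean with TTR REVERSIR, 94.8% with siRNA + TTR REVERSIR, 101% with scrambled REVERSIR, 20.3% with siRNA + scrambled REVERSIR and 21.8% with siRNA, which fits the labels. PBS replicates 1 and 2 stood apart from the rest. Mitochondrial ribosomal RNA made up 24.3% and 24.1% of their counts, against 1.69% to 9.56% in the other 16 libraries, PBS replicate 3 among them at 5.45%. The hepatocyte markers Alb, Apoa1 and Fgb were abundant in every library, with Alb never under 36758 CPM (counts per 1000000 TMM-scaled counts of the library). Over the 7 hepatocyte markers, 1 or 2 were lower than in PBS in each treatment, namely Serpina1c in all 5 and Ttr in the siRNA and siRNA + scrambled REVERSIR groups. Of the markers found for other cell types, 3 of 8 of Kupffer cells and macrophages and 4 of 7 of endothelium had enough reads to be tested. The same held for 5 of 9 of stellate cells and 3 of 6 of cholangiocytes. None of these tested markers passed the threshold against PBS. The summed level of all markers found, tested or not, is given for treated groups against PBS. It was 276 to 356 CPM against 310 to 381 CPM for Kupffer cells and macrophages. For endothelium it was 40.9 to 62.8 CPM against 45.4 to 55.0 CPM. Stellate cells gave 120.0 to 162 CPM against 146 to 151 CPM, and cholangiocytes 9.84 to 15.8 CPM against 13.5 to 16.4 CPM. Most of the macrophage sum was Cd68 (268 to 371 CPM), and each other macrophage marker reached at most 6.45 CPM. Most of the endothelial sum was Stab2 (35.2 to 51.2 CPM) and most of the stellate sum Reln (83.7 to 121 CPM). These sums therefore mainly follow single genes and do not measure how many such cells were present.

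RefSeq promoters of GRCm38.p6, from 250 bases before to 50 bases after an annotated start, were matched for 7 of the 8 genes. They are shown for the 2 genes that stood furthest from PBS and for Alas1, which varied least, as 3 starts of the same pathway. Capitals mark motifs found on either strand: CACGTG (the E-box), TGACNNNGC (the core of the antioxidant element), GGGCGG (the GC box) and, in the Alas1 window, the motif of 10 letters known to be bound by the factor Nrf1. The windows are chr4:116994364-116994663 on the minus strand for Urod, chr9:120110132-120110431 on the plus strand for Slc25a38, and chr9:106247681-106247980 on the minus strand for 1 of the 2 annotated starts of Alas1.
Urod: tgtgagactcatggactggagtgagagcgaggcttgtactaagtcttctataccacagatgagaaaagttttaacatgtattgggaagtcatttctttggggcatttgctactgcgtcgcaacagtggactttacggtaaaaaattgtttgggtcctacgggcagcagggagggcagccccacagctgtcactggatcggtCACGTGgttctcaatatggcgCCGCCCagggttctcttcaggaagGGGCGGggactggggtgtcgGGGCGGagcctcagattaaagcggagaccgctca
Slc25a38: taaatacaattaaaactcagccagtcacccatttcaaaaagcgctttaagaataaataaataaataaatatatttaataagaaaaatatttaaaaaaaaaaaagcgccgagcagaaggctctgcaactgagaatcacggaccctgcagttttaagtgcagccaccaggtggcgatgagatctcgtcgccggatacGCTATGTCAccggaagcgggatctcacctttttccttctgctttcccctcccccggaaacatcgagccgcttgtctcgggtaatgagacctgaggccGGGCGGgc
Alas1: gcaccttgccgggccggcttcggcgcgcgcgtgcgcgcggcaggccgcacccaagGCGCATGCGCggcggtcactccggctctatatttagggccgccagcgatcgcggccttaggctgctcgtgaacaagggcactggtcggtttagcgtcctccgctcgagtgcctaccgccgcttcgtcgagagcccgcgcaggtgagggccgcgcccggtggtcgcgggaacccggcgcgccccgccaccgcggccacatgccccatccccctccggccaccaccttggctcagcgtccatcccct
The Urod window held 1 CACGTG that begins 49 bases before the start, and 3 copies of GGGCGG. The Slc25a38 window held TGACNNNGC, on the other strand, 55 bases before the start, and 1 GGGCGG. The Alas1 window held the Nrf1 motif at 195 bases before this start and none of the other 3 motifs. Of all 32851 promoters in the table, 0.971% held the Nrf1 motif, 7.15% CACGTG, 12.4% TGACNNNGC and 35.7% GGGCGG. No 2 of these 3 windows shared a motif other than the GC box, which Urod and Slc25a38 both held and which is common. The window of the other annotated start of Alas1, not printed, overlaps this one and held the same Nrf1 site. There the site begins at base 30 counted from that start on, so it lies after it. That window also held 1 GGGCGG, 111 bases before the start. These matches describe letters and not binding.

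In the mouse build NCBIM37, Slc25a38 (ENSMUSG00000032519) lies on the plus strand at chr9:120019492-120033622 and Alas1 (ENSMUSG00000032786) on the minus strand at chr9:106135786-106150457. Alad (ENSMUSG00000028393, chr4:62170203-62180952) and Urod (ENSMUSG00000028684, chr4:116662570-116667018) are both on the minus strand of chromosome 4. Uros (ENSMUSG00000030979) is at chr7:140877926-140901755 on the minus strand and Cpox (ENSMUSG00000022742) at chr16:58670321-58680504 on the plus strand. Ppox (ENSMUSG00000062729) is at chr1:173206121-173211317 and Fech (ENSMUSG00000024588) at chr18:64616204-64648720, both on the minus strand. Each value is a count over the exons of a whole gene.

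Per kilobase of exon (RPKM), the 8 transcripts kept nearly the same order in every library. Alas1 was highest at 48.1 RPKM over the 18 libraries, followed by Fech at 25.6 and Urod at 13.3 RPKM. Alad (9.06 RPKM) and Cpox (8.14 RPKM) were close, with Alad higher in 14 of 18 libraries, and came before Uros (3.60 RPKM), Slc25a38 (2.25 RPKM) and Ppox (1.03 RPKM). Each of the other 6 neighbouring pairs in that order was ranked the same way in 18 of 18 libraries. The closest of these was Urod over Alad, whose ratio fell to 1.02 in 1 library against a median of 1.502.

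**Figure D1:**
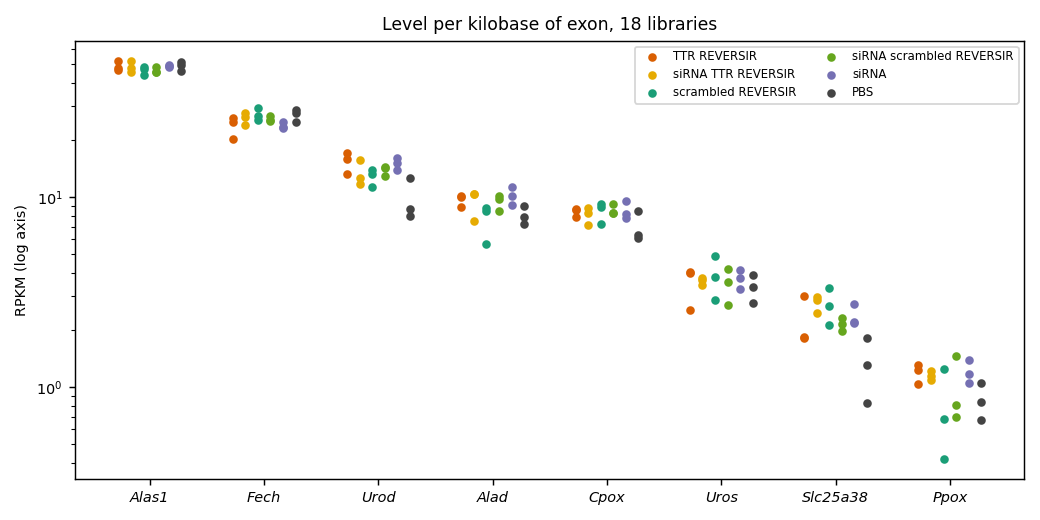
RPKM of the 8 heme synthesis transcripts on a log axis, 1 point per library, coloured by treatment with PBS at the right of each cluster. Alas1 sits near 48.1 RPKM in all groups and Ppox near 1.03 RPKM, and PBS points of Urod and Slc25a38 lie at the low end of their clusters.

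Slc25a38, the glycine carrier at the head of the chain, was the transcript furthest from PBS. It measured 8.32, 5.003 and 5.07 CPM with TTR REVERSIR, 6.77, 8.14 and 7.85 CPM with siRNA + TTR REVERSIR, and 9.08, 5.81 and 7.31 CPM with scrambled REVERSIR. It measured 6.31, 5.42 and 5.90 CPM with siRNA + scrambled REVERSIR and 7.50, 6.07 and 5.97 CPM with siRNA, against 3.57, 4.96 and 2.27 CPM with PBS. All 15 treated libraries were above all 3 PBS libraries, which 0.538% of the genes tested also showed. The edge is thin, since the lowest treated library, TTR REVERSIR replicate 2, rests on 11 reads (5.003 CPM, exact 95% Poisson interval 2.50 to 8.95 CPM) and the highest PBS library, replicate 2, on 22 reads (4.96 CPM, interval 3.11 to 7.50 CPM). These intervals cover counting error only, and Slc25a38 had 9 to 65 reads per library.

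On the log2 scale Slc25a38 stood above PBS by 0.86 ± 0.27 (SE, n = 3 libraries a group unless another number is given) with TTR REVERSIR and by 1.04 ± 0.24 with siRNA + TTR REVERSIR, a 2.06-fold level. It also stood above PBS in the groups without the TTR sequence, by 1.01 ± 0.30 with scrambled REVERSIR, 0.69 ± 0.25 with siRNA + scrambled REVERSIR and 0.82 ± 0.26 with siRNA. Against PBS replicate 3 alone, the library without the high mitochondrial ribosomal RNA share but with 9 reads of Slc25a38, the 5 differences were 1.55, 1.73, 1.69, 1.37 and 1.499 in the same order. Without PBS replicate 3 they were 0.65, 0.83, 0.80, 0.48 and 0.60, so that this library sets much of their size.

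**Figure D2:**
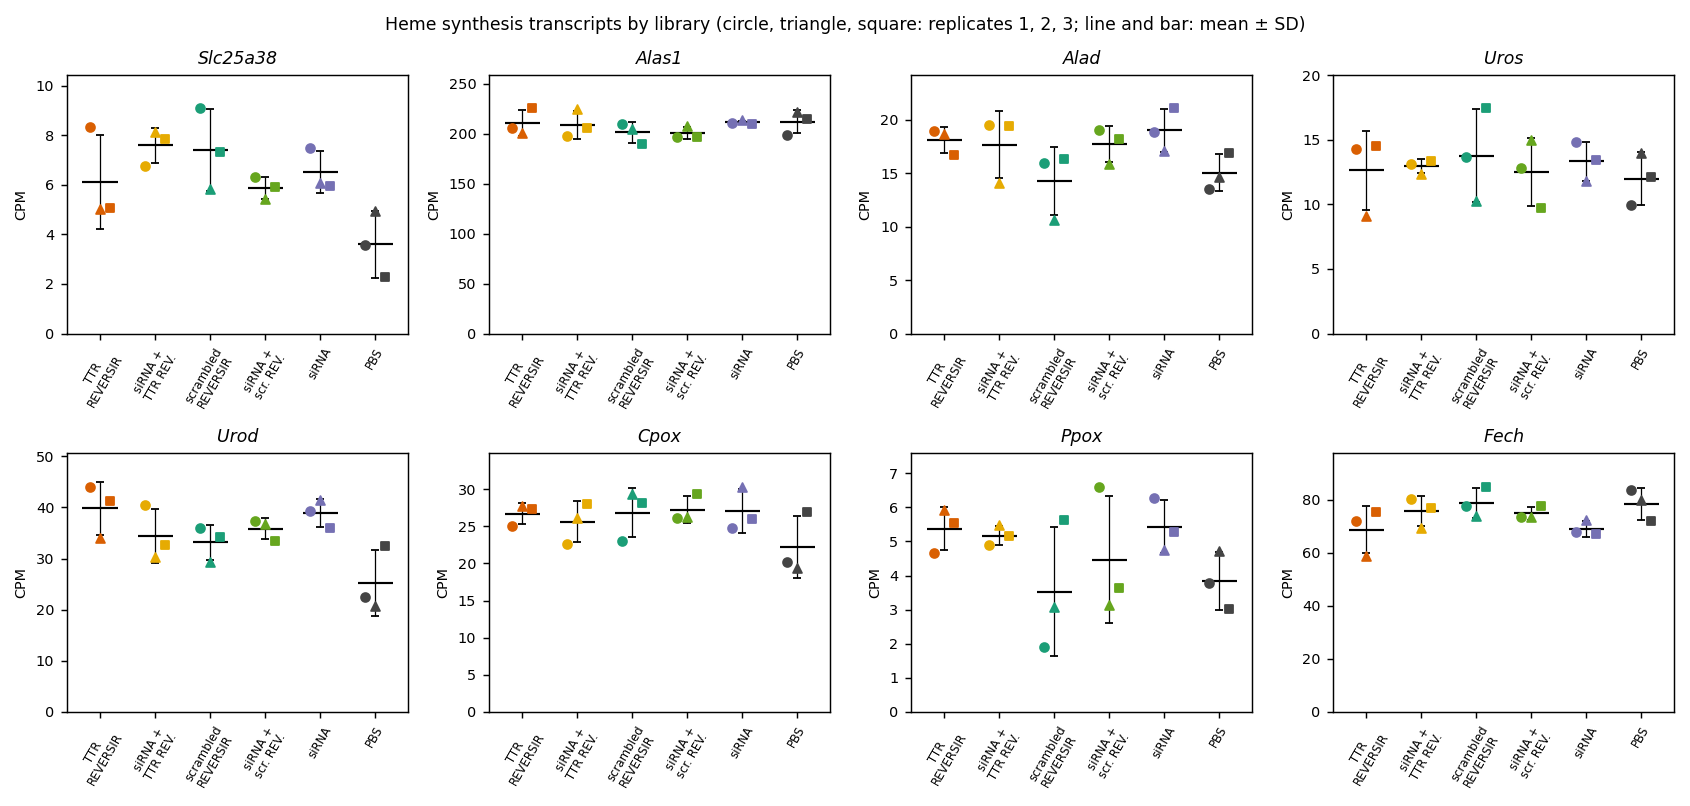
CPM of each heme synthesis transcript in the 18 libraries, with the mean and SD of each group as a line and a bar and PBS at the right. Slc25a38 and Urod are lower in PBS (means 3.60 and 25.2 CPM) than in any treatment, while Alas1 lies between 189 and 225 CPM throughout.

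Alas1, the rate-limiting enzyme, hardly moved. It measured 205, 200.6 and 225 CPM with TTR REVERSIR, 197, 224 and 205 CPM with siRNA + TTR REVERSIR, and 209, 204 and 189 CPM with scrambled REVERSIR. It measured 196, 207 and 197 CPM with siRNA + scrambled REVERSIR and 210.4, 213 and 209.6 CPM with siRNA, against 199, 221 and 214 CPM with PBS. The groups overlap, the highest group mean was 1.06 times the lowest, and the coefficient of variation over all 18 libraries was 4.82%. Against PBS the log2 differences were −0.01 ± 0.07 with TTR REVERSIR (95% interval −0.14 to 0.13), −0.02 ± 0.07 with siRNA + TTR REVERSIR, −0.07 ± 0.07 with scrambled REVERSIR, −0.08 ± 0.07 with siRNA + scrambled REVERSIR and −0.0028 ± 0.07 with siRNA. None passed edgeR's quasi-likelihood test with Benjamini-Hochberg adjustment over the 11153 genes, the smallest adjusted p being 0.565. This direction depends on the scaling, and with library totals in place of TMM all 5 differences were positive, from 0.21 to 0.31, while the median of all genes moved to between 0.29 and 0.33.

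The cytosolic enzymes that condense and close the ring were also near their PBS levels. Alad, which joins a pair of 5-aminolevulinate molecules to porphobilinogen, averaged 18.1 ± 1.25 CPM with TTR REVERSIR, 17.7 ± 3.10 with siRNA + TTR REVERSIR, 14.3 ± 3.19 with scrambled REVERSIR, 17.7 ± 1.67 with siRNA + scrambled REVERSIR and 19.0 ± 1.99 with siRNA, against 15.01 ± 1.73 CPM with PBS (SD). All 3 siRNA libraries, at 17.1 to 21.1 CPM, lay above the 3 PBS libraries at 13.5 to 16.9 CPM, and the log2 difference of 0.36 ± 0.15 had an adjusted p of 0.186 in edgeR's test. Uros, which closes the ring, averaged from 12.5 to 13.8 CPM over the 5 treatments and 11.996 ± 2.03 CPM with PBS, and the groups overlap in all 5 comparisons. Its log2 differences from PBS were 0.10 to 0.16.

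Urod, which removes the carboxyl groups of the first porphyrinogen, was the second transcript that stood away from PBS. It measured 44.1, 34.1 and 41.3 CPM with TTR REVERSIR, 40.4, 30.4 and 32.6 CPM with siRNA + TTR REVERSIR, and 36.0, 29.4 and 34.3 CPM with scrambled REVERSIR. It measured 37.3, 36.7 and 33.5 CPM with siRNA + scrambled REVERSIR and 39.3, 41.4 and 35.9 CPM with siRNA, against 22.4, 20.7 and 32.5 CPM with PBS. PBS replicates 1 and 2 were the 2 lowest of all 18 libraries, while PBS replicate 3 lay within the range of the treated ones. Of the 15 treated libraries 13 were above every PBS library, and 3.65% of the genes tested had at least that many.

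The log2 difference of Urod from PBS was 0.71 ± 0.14 with TTR REVERSIR, a 1.64-fold level, and 0.48 ± 0.14 with siRNA + TTR REVERSIR. It was 0.40 ± 0.16 with scrambled REVERSIR, 0.53 ± 0.14 with siRNA + scrambled REVERSIR and 0.63 ± 0.14 with siRNA. Here too every treatment was on the same side of PBS, with or without the TTR sequence. Against PBS replicate 3 alone the differences were 0.34 ± 0.18, 0.10 ± 0.17, 0.02 ± 0.19, 0.15 ± 0.17 and 0.25 ± 0.18 in the same order. With PBS at n = 1 these standard errors take the spread from the other groups and assume that PBS varies like them. With the mitochondrial ribosomal RNA share as a covariate they were 0.38, 0.14, 0.07, 0.21 and 0.30, so that for Urod the difference is smaller where PBS replicates 1 and 2 carry less weight, the reverse of Slc25a38.

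**Figure D3:**
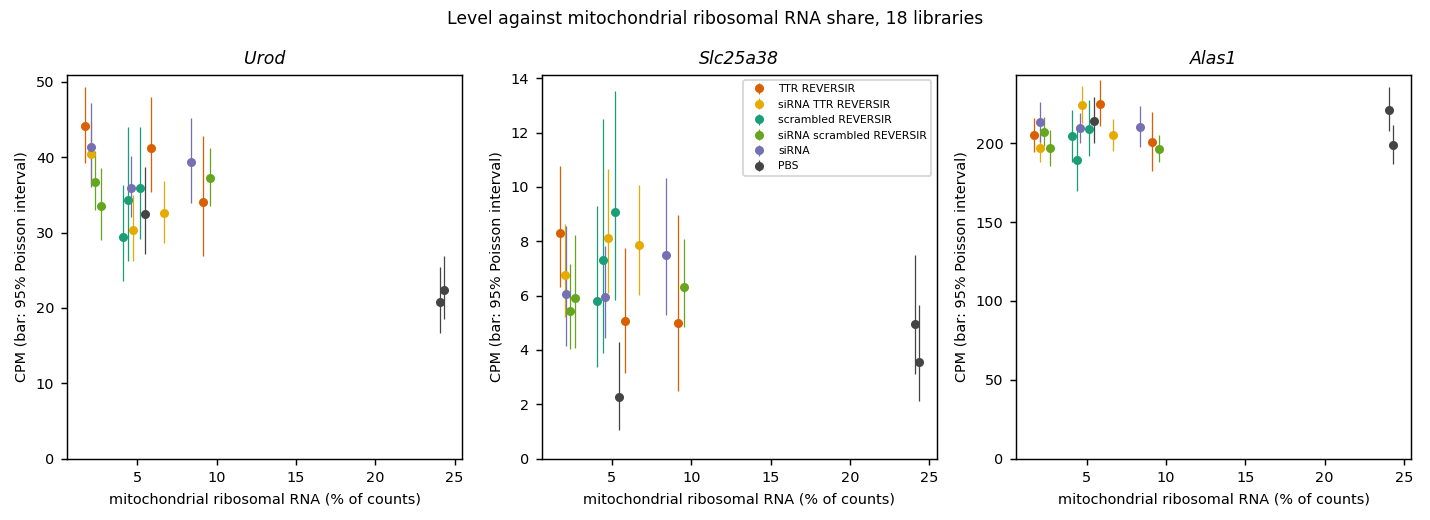
CPM of Urod, Slc25a38 and Alas1 (bars, exact 95% Poisson intervals from the reads) against the share of counts from mitochondrial ribosomal RNA in each of the 18 libraries. For Urod the 2 PBS libraries at 24.3% and 24.1% are the lowest and PBS replicate 3 at 5.45% lies among the treated libraries, whereas for Slc25a38 PBS replicate 3 is the lowest of all.

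Of the last 3 enzymes, which work in the mitochondrion, none passed the test. Cpox averaged 26.7 ± 1.41 CPM with TTR REVERSIR, 25.6 ± 2.76 with siRNA + TTR REVERSIR, 26.9 ± 3.33 with scrambled REVERSIR, 27.2 ± 1.82 with siRNA + scrambled REVERSIR and 27.0 ± 2.96 with siRNA, against 22.2 ± 4.16 CPM with PBS (SD). Its 3 PBS libraries were at 20.2, 19.4 and 27.0 CPM, the same split as for Urod, with replicate 3 among the treated libraries. Its log2 differences from PBS were 0.21 to 0.30, with the smallest adjusted p of 0.207 in siRNA (edgeR). Without PBS replicate 3, which leaves 2 PBS libraries, Cpox passed in siRNA (0.44 ± 0.13, edgeR adjusted p = 0.0334) and in siRNA + scrambled REVERSIR (0.45 ± 0.13, edgeR adjusted p = 0.0300). In that setting 1365 and 1142 of all genes passed in these 2 comparisons, against 292 and 68 with all 3 PBS libraries. Without PBS replicates 1 and 2 its differences were −0.08 to 0.01.

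Ppox, which oxidises protoporphyrinogen, was the least abundant, with 5 to 66 reads per library. It averaged 5.38 ± 0.64 CPM with TTR REVERSIR, 5.17 ± 0.29 with siRNA + TTR REVERSIR, 3.53 ± 1.91 with scrambled REVERSIR, 4.47 ± 1.87 with siRNA + scrambled REVERSIR and 5.43 ± 0.78 with siRNA, against 3.84 ± 0.86 CPM with PBS (SD). The siRNA + TTR REVERSIR and siRNA libraries were all above the PBS libraries, yet the log2 differences of 0.41 ± 0.28 and 0.48 ± 0.29 had edgeR adjusted p-values of 0.473 and 0.365. These 2 differences depend on the PBS libraries. Against PBS replicate 3 alone, with 12 reads of Ppox, they were 0.77 and 0.84, and without that library 0.28 and 0.35. With the mitochondrial ribosomal RNA share as a covariate they were 1.24 ± 0.39 and 1.28 ± 0.39. Exons of Ppox overlap those of B4galt3, on the opposite strand, over 791 bases or 17.5% of its exon length. Which strand was counted is not given in those sources, so reads of the overlap cannot be told apart. B4galt3 was at 10.7 to 20.5 CPM and passed the test in none of the 12 comparisons.

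Fech, which inserts iron, was the second most abundant per length and, like Alas1, had a lower mean fitted level in all 5 treatments than in PBS. It measured 72.0, 58.7 and 75.3 CPM with TTR REVERSIR and 67.7, 72.3 and 66.9 CPM with siRNA, against 83.5, 80.0 and 71.9 CPM with PBS. The log2 differences in these 2 groups were −0.17 ± 0.09 and −0.19 ± 0.08, with edgeR adjusted p-values of 0.339 and 0.205, and the groups overlap. The differences with siRNA + TTR REVERSIR (−0.05), scrambled REVERSIR (−0.01) and siRNA + scrambled REVERSIR (−0.08) were smaller than their standard errors. With library totals in place of TMM the 5 differences were positive, from 0.14 to 0.29, below or about equal to the shift of the median of all genes.

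Counted over the comparisons with PBS, 1 of 8 genes (Urod) passed in TTR REVERSIR, where 0.699% of all genes did, 1 of 8 (Slc25a38) in siRNA + TTR REVERSIR (0.789%), 0 of 8 in scrambled REVERSIR (0.421%), 0 of 8 in siRNA + scrambled REVERSIR (0.61%) and 1 of 8 (Urod) in siRNA (2.62%). Nothing is read from these counts, since each of the genes that passed was picked by this contrast or shares its PBS libraries. Of the other 6 genes, 0 passed in any of the 5. DESeq2 likewise called 0 of those 6, though it gave no adjusted p to some of them, Uros and Ppox in every comparison with PBS. At an unadjusted p under 0.05 in edgeR's test there were 3 of the 6 in siRNA (Alad, Cpox and Fech). There was 1 in siRNA + scrambled REVERSIR (Cpox) and 0 in the other 3. Many of all 11153 genes had such a p as well, 2241 in siRNA and 1975 in siRNA + scrambled REVERSIR. The number was 1825 in TTR REVERSIR, 1974 in siRNA + TTR REVERSIR and 1636 in scrambled REVERSIR. The median log2 difference of the 8 genes was 0.27, 0.23, 0.07, 0.25 and 0.33 in TTR REVERSIR, siRNA + TTR REVERSIR, scrambled REVERSIR, siRNA + scrambled REVERSIR and siRNA, beside −0.01 to 0.0029 over all genes. Urod and Slc25a38, chosen for lying above PBS, lift these medians, and over the other 6 genes they were 0.21, 0.17, −0.04, 0.17 and 0.23 in the same order. Libraries that did not overlap with PBS, all above it, were found for Urod and Slc25a38 in TTR REVERSIR (5.66% of all genes), for Ppox and Slc25a38 in siRNA + TTR REVERSIR (7.79%), for Slc25a38 in scrambled REVERSIR (7.3%), for Urod and Slc25a38 in siRNA + scrambled REVERSIR (9.55%), and for Alad, Urod, Ppox and Slc25a38 in siRNA (9.51%). These 5 comparisons share the same 3 PBS libraries.

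In the authors' deposited table the log2 fold change of Urod was 0.46 with TTR REVERSIR and 0.41 with siRNA. It was 0.30, 0.26 and 0.34 with siRNA + TTR REVERSIR, scrambled REVERSIR and siRNA + scrambled REVERSIR in the authors' deposited table. For Slc25a38 the authors' deposited table gives 0.26, 0.37, 0.31, 0.20 and 0.26 with TTR REVERSIR, siRNA + TTR REVERSIR, scrambled REVERSIR, siRNA + scrambled REVERSIR and siRNA. The standard errors of Slc25a38 in the authors' deposited table are 0.102 to 0.107, against 0.24 to 0.30 in the fit used here, as shrunken fold changes would have. No source used here says whether they were shrunken, so the 2 sets of values may not share a scale.

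The 2 sequences of REVERSIR can be set against each other without PBS. For Urod and Slc25a38, which were chosen by their levels with TTR REVERSIR, these values are a description with no test. Averaged over the groups with and without siRNA, 6 libraries against 6, Urod averaged 37.1 CPM with TTR REVERSIR and 34.5 CPM with scrambled REVERSIR, a log2 difference of 0.13 ± 0.10. Slc25a38 averaged 6.86 CPM with TTR REVERSIR and 6.64 CPM with scrambled REVERSIR, a difference of 0.10 ± 0.16. Without siRNA the difference was 0.31 ± 0.15 for Urod and −0.15 ± 0.27 for Slc25a38, and with siRNA it was −0.05 ± 0.12 and 0.35 ± 0.19, so that neither gene kept 1 sign. Alas1 differed by 0.06 ± 0.05 (95% interval −0.04 to 0.16). Of the 6 tested genes 0 passed edgeR's test without siRNA (0.0179% of all genes did), with siRNA (0.00897%) or averaged (0.00897%), none had an unadjusted p under 0.05, and DESeq2 called 0 in these 3 comparisons, with an adjusted p for Alas1 alone in the first. The largest value was that of Ppox without siRNA, 0.66 ± 0.38, with edgeR adjusted p = 0.740.

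**Figure D4:**
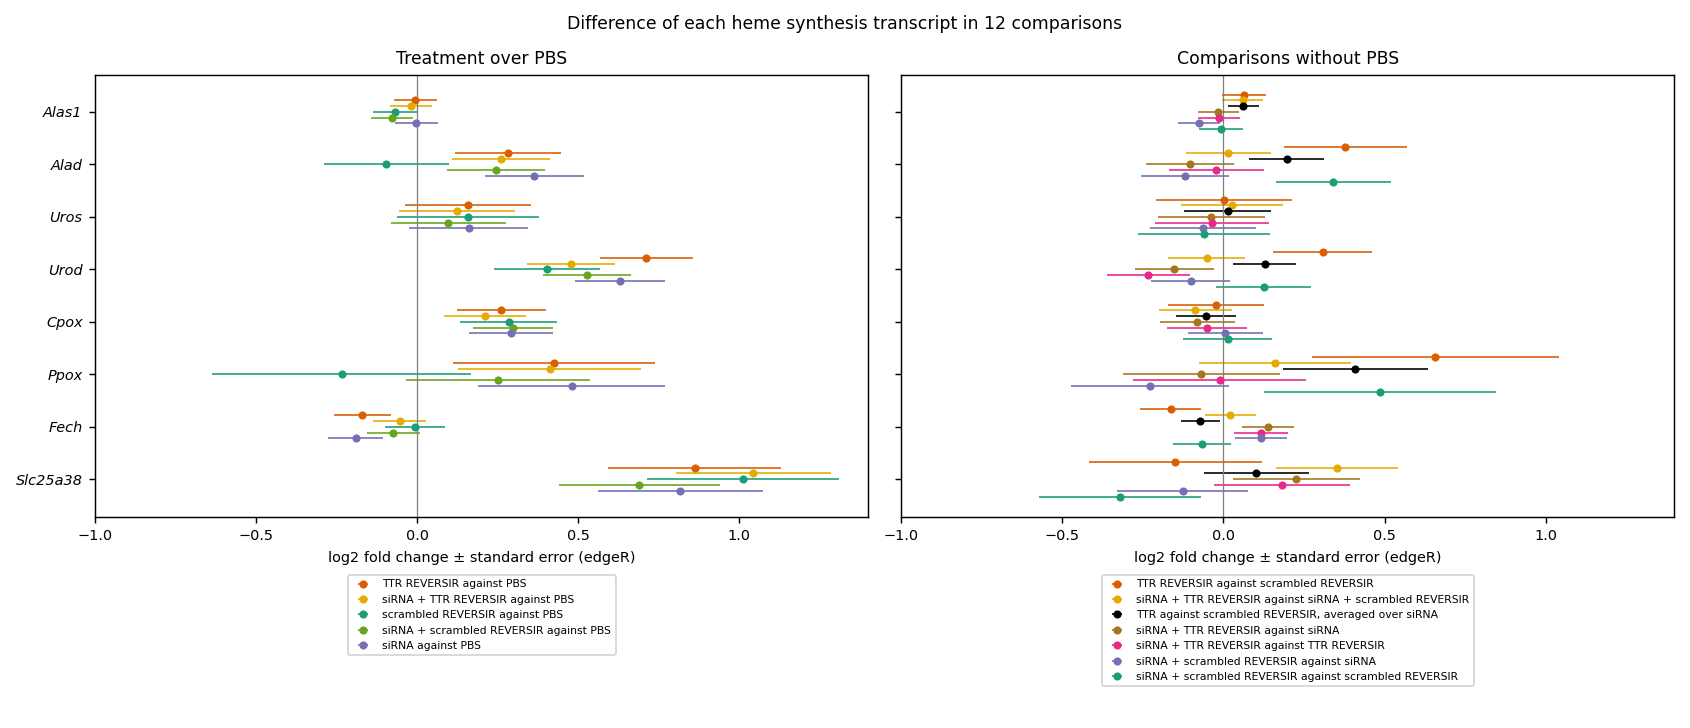
Log2 fold change with its standard error for each of the 8 transcripts in the 5 comparisons with PBS (left) and the 7 without it (right). Against PBS, Urod (0.40 to 0.71) and Slc25a38 (0.69 to 1.04) lie right of 0 in every treatment, and without PBS the points of both genes fall on either side of 0.

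Groups that differ by 1 added oligonucleotide were compared next. With siRNA + TTR REVERSIR against siRNA (0.00897% of all genes passed) and against TTR REVERSIR (0% passed), 0 of the 6 tested genes passed, and 0 had an unadjusted p under 0.05. Urod differed by −0.15 ± 0.12 and −0.23 ± 0.13 and Slc25a38 by 0.23 ± 0.20 and 0.18 ± 0.21 in these comparisons. The 2 comparisons that use no PBS and no TTR REVERSIR library allow a test of all 8 genes. With siRNA + scrambled REVERSIR against siRNA (0% of all genes passed) 0 of 8 passed in edgeR and in DESeq2, and Urod, at 35.8 ± 2.03 CPM against 38.9 ± 2.76 CPM, differed by −0.10 (95% interval −0.35 to 0.15). With siRNA + scrambled REVERSIR against scrambled REVERSIR (0.0179% passed) 0 of 8 passed as well, also in DESeq2, which gave no adjusted p to Alad, Uros, Ppox and Slc25a38, with Urod at 0.13 (interval −0.18 to 0.43) and Slc25a38, at 5.88 ± 0.45 CPM against 7.40 ± 1.64 CPM, at −0.32 (interval −0.84 to 0.20). In both comparisons 0 of 8 had an unadjusted p under 0.05.

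**Figure D5:**
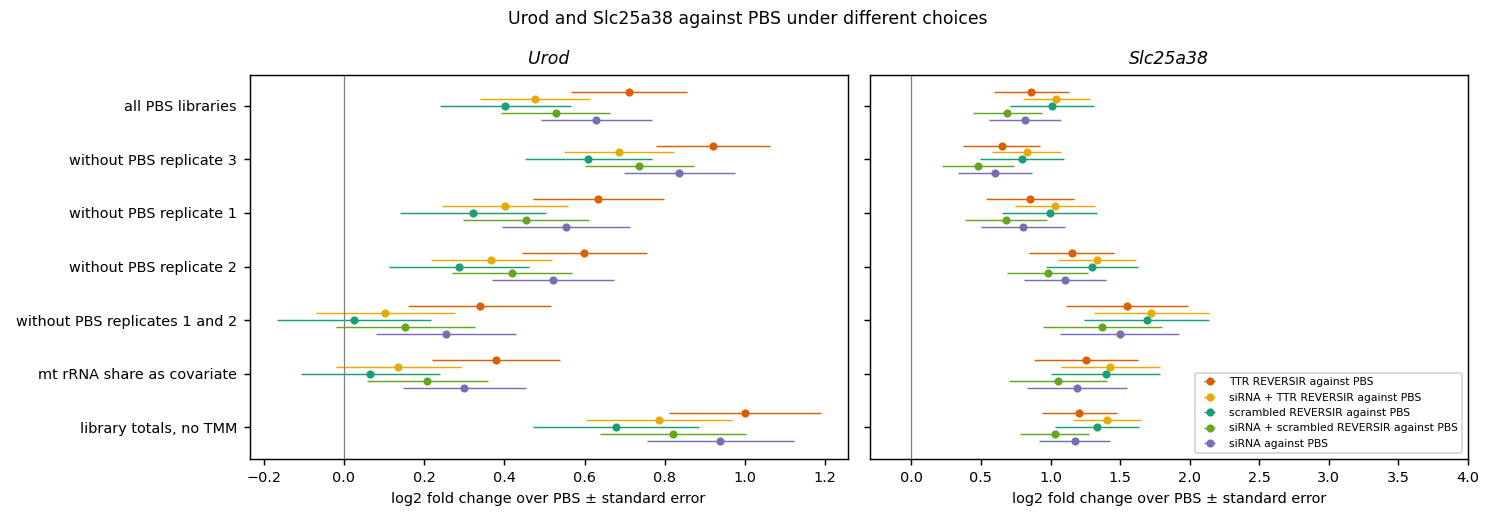
Log2 fold change of Urod (left) and Slc25a38 (right) over PBS in the 5 treatments, with standard errors, under 7 ways of treating the PBS libraries and the scaling. Urod shrinks toward 0 without PBS replicates 1 and 2 (0.02 to 0.34), whereas Slc25a38 is largest there (1.37 to 1.73).

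Alas2, the erythroid isoform of the first enzyme, was at 15.8 to 22.0 CPM and passed in none of the 12 comparisons. The exons of Alas2 overlap those of Apex2, on the opposite strand, over 311 bases or 12.9% of its exon length, and Apex2 was at 4.35 to 10.5 CPM. Among other erythroid markers, Hba-a2, Hbb-b2, Slc4a1 and Epb4.2 had 0 reads in all libraries together, Hba-a1 had 2, Hbb-b1 had 1 and Klf1 had 5.

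Among 14 measured transporters of porphyrin, iron or heme, 1 rose in siRNA against PBS, where 2.62% of all genes passed, and 0 passed in the other 4 comparisons with PBS. This was Tspo, an outer mitochondrial membrane protein that binds porphyrins, at 96.0 ± 5.22 CPM with siRNA and 62.1 ± 12.3 CPM with PBS (log2 difference 0.63 ± 0.13, edgeR adjusted p = 0.0171). In the supply of succinyl-CoA and glycine, 1 of 11 measured genes rose in siRNA against PBS (2.62% of all genes passed), Shmt1, a serine hydroxymethyltransferase that makes glycine, at 28.6 ± 1.52 CPM with siRNA and 21.5 ± 1.66 CPM with PBS (0.41 ± 0.11, edgeR adjusted p = 0.0393). Of the 14 regulators, which include Ppargc1a, Nr1d1, Nfe2l2 and Bach1, 0 passed in any comparison with PBS. The medians of the 5 comparisons ran from 0.06 to 0.16 for the transporters, −0.0039 to 0.09 for the supply genes and −0.04 to −0.02 for the regulators.

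Of 7 genes of heme breakdown and scavenging, 2 fell in siRNA (2.62% of all genes passed) and 1 in scrambled REVERSIR (0.421%) against PBS. Hmox1, the inducible heme oxygenase, averaged 190.4 ± 19.4 CPM with scrambled REVERSIR and 268 ± 43.2 CPM with PBS (−0.50 ± 0.10, edgeR adjusted p = 0.0283). With siRNA it averaged 212 ± 10.7 CPM (−0.34 ± 0.09, edgeR adjusted p = 0.0491). Ugt1a1, which conjugates bilirubin, averaged 40.5 ± 6.11 CPM with siRNA and 57.9 ± 8.15 CPM with PBS (−0.54 ± 0.13, edgeR adjusted p = 0.0308). In the other 3 comparisons with PBS 0 of 7 passed. Without PBS replicates 1 and 2, 0 of all genes passed in scrambled REVERSIR and 1 of all genes in siRNA.

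Of 13 measured heme-using proteins, 2 cytochromes P450 fell and 1 subunit of complex II rose, in comparisons with PBS where 0.421% (scrambled REVERSIR), 0.699% (TTR REVERSIR), 0.789% (siRNA + TTR REVERSIR) and 2.62% (siRNA) of all genes passed. Cyp2c29 averaged 305 ± 19.0 CPM with TTR REVERSIR, 293 ± 11.9 with scrambled REVERSIR and 305 ± 22.5 with siRNA, against 376 ± 10.2 CPM with PBS, with log2 differences of −0.30, −0.36 and −0.30 (edgeR adjusted p = 0.0426, 0.0283 and 0.0237). Cyp3a11 averaged 1218 ± 35.3 CPM with scrambled REVERSIR and 1204 ± 42.7 with siRNA, against 1568 ± 208 CPM with PBS, at −0.36 and −0.38 (edgeR adjusted p = 0.0382 and 0.0163). Sdhd averaged 148 ± 15.6 CPM with siRNA + TTR REVERSIR and 141 ± 4.48 with siRNA, against 112 ± 13.4 CPM with PBS, at 0.41 and 0.34 (edgeR adjusted p = 0.0352 and 0.0452). None of the genes of these 6 lists passed in any of the 7 comparisons without PBS. With the mitochondrial ribosomal RNA share as a covariate, at most 1 of all 11153 genes passed in any comparison with PBS. Without PBS replicates 1 and 2 a single PBS library is left, which is too few to say which of these genes would pass.

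The gene whose level over the 18 libraries followed Urod most closely, among 10711 searched, was Tuba1c, a tubulin (Pearson r of log2 CPM 0.962). Tuba1c averaged 182 to 197 CPM in the treated groups and 137 CPM with PBS, its lowest group. Over the 16 libraries other than PBS replicates 1 and 2 r was 0.877. For Slc25a38 the closest were 9130019O22Rik (0.773), Pigs (0.765) and Hexdc (0.763), also lowest in PBS. The libraries share depth and scaling, and these values are a description.

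The genes next to Urod and Slc25a38 were measured too. Zswim5 and Hectd3 lie 700 and 903 bases from Urod on the opposite strand. Hectd3, at 28.0 to 43.3 CPM, differed from PBS by 0.10 to 0.37 on the log2 scale over the 5 treatments, and Zswim5, at 3.85 to 9.01 CPM, by −0.58 to −0.13. Rpsa, a ribosomal protein gene 3261 bases from Slc25a38 on the same strand, was at 928 to 1220 CPM and differed from PBS by 0.11 to 0.19 over the 5 treatments. None of these 3 passed edgeR's test against PBS.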

How the data were processed

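Total RNA of 18 libraries in 6 groups of 3 was read as raw counts per gene, deposited by the authors as whole numbers for 37991 Ensembl genes. The submitters' processing notes name STAR, DESeq2 and NCBIM37 without versions, and no source used here names the counting tool or its strand setting. The authors' deposited tables compare each treatment with PBS by DESeq2 and hold, per the file headers, a mean signal over libraries (size-factor scaled), log2 fold changes and their errors, the Wald score, and raw and adjusted p-values. Libraries were grouped by the labels.

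Genes were kept by filterByExpr of edgeR 4.0.16 (R 4.3.3, limma 3.58.1), scaled by TMM and fitted over all 18 libraries by group with quasi-likelihood models. Benjamini-Hochberg adjustment ran over 11153 genes, with a threshold of 0.05, in 12 comparisons. Standard errors came from the F statistic. CPM use TMM-scaled totals, and RPKM divide them by the union of exons of the NCBIM37 annotation. Likeness was searched among genes whose log2 CPM averaged 1 or more (prior count 2). Genes named were the 8 members, the members of 6 lists that passed (up to 3 per list and comparison), the 3 most alike to Urod and to Slc25a38, and neighbours, and a few of these genes are not reported here. The members and lists were chosen with earlier results of these data known. Alternatives were DESeq2 1.42.0, library totals, no filter, the compared groups alone, a replicate block, each replicate left out, the mitochondrial ribosomal RNA share as covariate, and PBS replicates 1 and 2 left out together. The scripts were tested on simulated data. With 3 libraries a group and 12 residual degrees of freedom, Slc25a38 and Ppox had the fewest reads of the 8 genes.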

Additional observations from a re-analysis of the deposited data

How the results depend on the processing

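In the 7 comparisons without PBS, 0 of the 8 genes passed under every alternative that was run. With DESeq2 some of them could not pass, since they had no adjusted p. These were all but Alas1 in TTR REVERSIR against scrambled REVERSIR and in siRNA + TTR REVERSIR against siRNA. In siRNA + scrambled REVERSIR against scrambled REVERSIR they were Alad, Uros, Ppox and Slc25a38. Against PBS, apart from library totals and from Cpox without PBS replicate 3, every gene that passed was Urod or Slc25a38. Those genes were chosen by PBS and TTR REVERSIR libraries, so nothing is read from their passing or not passing. The number that passed changed, in the order TTR REVERSIR, siRNA + TTR REVERSIR, scrambled REVERSIR, siRNA + scrambled REVERSIR and siRNA (1, 1, 0, 0 and 1 as reported). With DESeq2 that number was 0, 0, 0, 1 and 1, beside 155, 180, 169, 162 and 386 of all genes. DESeq2 gave no adjusted p to Slc25a38 in any of them and to Urod in the first. With library totals it was 4, 6, 3, 4 and 6, beside 2883, 4089, 1580, 3557 and 3844 of 11153 genes. So large a share of all genes passed there that nothing is read from these counts. With no filter it was 1, 2, 1, 1 and 2, beside 498, 585, 424, 564 and 677 of a larger number of genes. It was 0 in all 5 with the compared groups alone and with the mitochondrial ribosomal RNA share as covariate. With each replicate left out in turn the number of the 8 genes that passed ran from 0 to 1, 0 to 2, 0 to 1, 0 to 2 and 0 to 2. The counts of 2 came without PBS replicate 3, in siRNA + TTR REVERSIR, siRNA + scrambled REVERSIR and siRNA, beside 1151, 1142 and 1365 of all genes. Without PBS replicate 1 or 2 the number of the 8 genes was 0 in TTR REVERSIR, siRNA + TTR REVERSIR and siRNA. Alas1 turned from below to above PBS, and past the threshold, with library totals in siRNA + TTR REVERSIR (0.30, adjusted p = 0.0476 in edgeR) and siRNA (0.31, adjusted p = 0.0444 in edgeR), where the median of all genes moved to 0.33 in both. The cause of the other changes was not tested.

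Whether replicate numbers pair the libraries is not settled. The deviations of same-numbered libraries from their group means correlated at −0.15 to 0.29 over 45 pairs, with a median of −0.01 and 6 over 0.1. Libraries of different numbers were not correlated in this way, so these values lack a baseline. With the replicate block 1, 0, 0, 0 and 1 genes passed in the same order. Over all genes 78, 88, 47, 68 and 292 passed as reported, 155, 180, 169, 162 and 386 with DESeq2, 2883, 4089, 1580, 3557 and 3844 with library totals, 498, 585, 424, 564 and 677 with no filter, 0, 1, 7, 7 and 1 with the compared groups alone, 0, 1, 0, 1 and 1 with the covariate, and 0, 0, 0, 1 and 1 without PBS replicates 1 and 2. The block gave 47 in siRNA + TTR REVERSIR. In the comparisons without PBS, at most 2 genes passed as reported and up to 49 with no filter. Slc25a38 and Ppox had as few as 9 and 5 reads in a library.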
